A study of Mus musculus with 2 samples.

Results

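Mir499, Mir208b and Mir208a are the microRNA genes that lie in introns of the myosin heavy chain genes Myh7b, Myh7 and Myh6. They were chosen by annotated symbol and Ensembl gene identifier, and are 3 of the 2202 microRNA genes counted. No measured value entered that rule, but earlier results of these data were known when it was set. MicroRNA sequencing was carried out on gastrocnemius, a calf muscle, of male B6CASTF1/J mice at 2 months of age, an F1 hybrid between the C57BL/6J and CAST/EiJ strains. The 2 libraries form a single group with no treated or mutant counterpart, and per the labels they are biological replicates 2 and 1 with RNA inserts under 30 nt. The labels number the males separately but give both the same donor record, so the spread between the libraries may be partly technical. Reads assigned to microRNA genes were 2272132 in replicate 2 and 638779 in replicate 1, so each count is known more precisely in replicate 2. These were 16.1% and 17.2% of all reads, and reads that matched several places, 74.4% and 75.2%, are not in any gene's count.

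A microRNA is cut from a hairpin in a longer transcript, and an intronic microRNA can be made from the transcript of its host gene or from a promoter of its own. No host messenger RNA was measured here. Bases 2 to 8 of the mature strand, the seed, pair with target messenger RNAs. Myh6 encodes the alpha cardiac myosin of the adult mouse heart, Myh7 the beta myosin of the fetal heart and of slow skeletal fibres, and Myh7b a related slow-type myosin. In mice, miR-208b and miR-499 have been linked to the slow fibre programme through repression of the transcription factor Sox6, and miR-208a to the response of the heart to stress. Gastrocnemius is a mixed muscle in which fast fibres predominate.

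The mature sequences, from RefSeq on GRCm38.p6, are shown 5′ to 3′ because their seeds relate the 3 genes to each other. Capitals mark the seed, bases 2 to 8, and the arm shown is the one usually described as the active strand.
miR-499-5p: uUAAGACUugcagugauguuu
miR-208b-3p: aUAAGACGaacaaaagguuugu
miR-208a-3p: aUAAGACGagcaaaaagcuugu
miR-208b-3p and miR-208a-3p had the same seed, and in 1738 mature mouse sequences of that table no other had it. The seed of miR-499-5p was held by miR-499-5p alone. It shared its first 6 bases with the miR-208 seed, and those 6 bases began the seed of these 3 microRNAs and of none other in the table. The 22 bases of miR-208a-3p and miR-208b-3p were identical at 19 positions. Counted from 1 at the 5′ end, with the miR-208a-3p base first, the differences were G10A, A16G and C18U. Against miR-208b-3p, miR-499-5p was identical at 10 of 21 positions, and against miR-208a-3p at 12.

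The hairpins are shown because the deposited values count reads per hairpin gene and do not separate its arms. Capitals mark both annotated mature arms.
Mir499: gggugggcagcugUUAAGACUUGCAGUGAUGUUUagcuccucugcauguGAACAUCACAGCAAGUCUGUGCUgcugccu
Mir208b: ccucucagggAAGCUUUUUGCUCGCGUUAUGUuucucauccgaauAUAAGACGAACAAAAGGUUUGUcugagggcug
Mir208a: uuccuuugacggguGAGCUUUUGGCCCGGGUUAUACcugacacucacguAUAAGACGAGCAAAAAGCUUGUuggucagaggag
The seed-sharing arm lay on the 5′ side of the hairpin in Mir499 and on the 3′ side in Mir208b and Mir208a. The hairpins were 79, 77 and 83 bases long, in the order shown, and their predicted minimum free energies were -42.5, -32.2 and -37.6 kcal/mol with 29, 29 and 33 base pairs. Near-identical copies would hide reads from these counts, so sharing was measured. On either strand, the longest run of bases shared with any of the 2201 other counted genes was 13 for Mir499, and 14 for Mir208b and Mir208a, which shared it with each other. None reached 20 bases. Each of the 6 mature arms matched exactly in annotated transcripts of its own gene alone. Copies outside annotated transcripts were not searched, nor was the influence of CAST alleles on read matching.

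Each gene lay on the strand of its host, inside an intron of every principal transcript that spans it (mm10, GENCODE M21). Mir499 (ENSMUSG00000076312.1) was at chr2:155622880-155622958 on the plus strand, in intron 19 of the 42-exon Myh7b transcript. Mir208b (ENSMUSG00000077928.1) was at chr14:54975700-54975776 on the minus strand, in intron 31 of the 41-exon Myh7 transcript. Mir208a (ENSMUSG00000065432.1) was at chr14:54949060-54949142 on the minus strand, in intron 29 of the 39-exon Myh6 transcript. The introns were short, at 481, 461 and 542 bases for Mir499, Mir208b and Mir208a.

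The introns of Mir208b and Mir208a occupied matching places in their hosts, although their numbers differ. Each followed an exon of 197 bases, preceded an exon of 184 bases and came after 71.8% of the coding sequence. They interrupted it after codons 1389 (Myh7) and 1391 (Myh6), both after the second base of the next codon. The intron of Mir499 came after 34.0% of the Myh7b coding sequence, between codons, after codon 659. Myh6 and Myh7 are neighbours, 3756 bases apart, and 26557 bases separate the hairpins of Mir208a and Mir208b. Among 14 annotated genes named Myh with a number, 1 further microRNA gene was found, Mir6923 in Myh3, the embryonic myosin. It had 0 counts in both libraries.

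**Figure D1:**
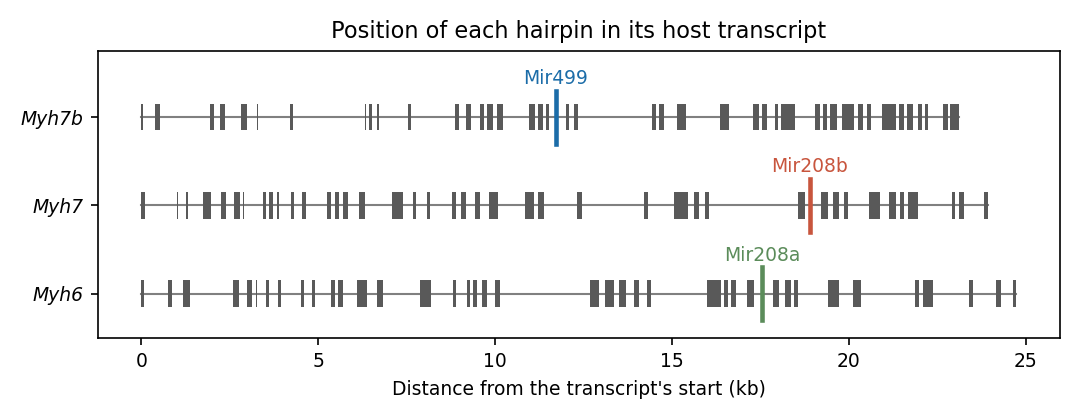
Exons (grey boxes) and hairpin position (coloured line) along the principal transcript of each host gene, in kb from the transcript's start. Mir208b and Mir208a sit after 71.8% of the coding sequence of Myh7 and Myh6, and Mir499 after 34.0% of that of Myh7b.

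All 3 genes had reads in both libraries, and their order was the same in each, with Mir499 first, Mir208b second and Mir208a far below. Mir499 had 4132 counts in replicate 2 and 501 in replicate 1, which is 1819 and 784 counts per 1000000 assigned microRNA counts (CPM). Its exact 95% Poisson intervals were 1764 to 1875 and 717 to 856 CPM, so the libraries stood apart by more than counting error. Such intervals cover counting error only, which here and below is that of independently drawn reads. Sequenced copies without molecular identifiers are not independent molecules, so the intervals may be too narrow. Mir208b had 1860 counts in replicate 2 and 360 in replicate 1. These were 819 CPM (782 to 857) and 564 CPM (507 to 625), again without overlap. Mir208a, whose host Myh6 is the gene most particular to heart, had 40 counts in replicate 2 and 4 in replicate 1. Its 17.6 CPM (12.6 to 24.0) and 6.26 CPM (1.71 to 16.0) had overlapping intervals. A gene at 0 may still have had up to 3 counts, which is 1.32 CPM at the depth of replicate 2 and 4.70 CPM at that of replicate 1. In replicate 1 Mir208a lay 1 count above that limit.

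Over both libraries, Mir499 averaged 1301 ± 731 CPM, Mir208b 691 ± 180 CPM and Mir208a 11.9 ± 8.02 CPM (SD, n = 2). The ranges of mean ± SD of Mir499 and Mir208b overlapped, at 570 to 2033 and 511 to 871 CPM, while that of Mir208a ended at 20.0 CPM. By mean CPM they ranked 52, 68 and 248 among the 2202 genes, with Mir499 at 44 and 62, Mir208b at 67 and 76, and Mir208a at 226 and 267 in replicates 2 and 1. Of the 2202 genes, 1653 had 0 counts in both libraries and 303 reached 2 CPM in both. Genes that lose reads to a near-identical copy can be ranked too low in such an order. Among the 1115 genes that share no run of 20 bases with another counted gene, the ranks of Mir499, Mir208b and Mir208a were 41, 54 and 188. No read was assigned in either library to 678 of the 1115. Together the 3 genes held 0.265% of the assigned counts in replicate 2 and 0.135% in replicate 1. Levels are of reads in a whole muscle, in which fewer cells of a type and less RNA per cell cannot be told apart.

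**Figure D2:**
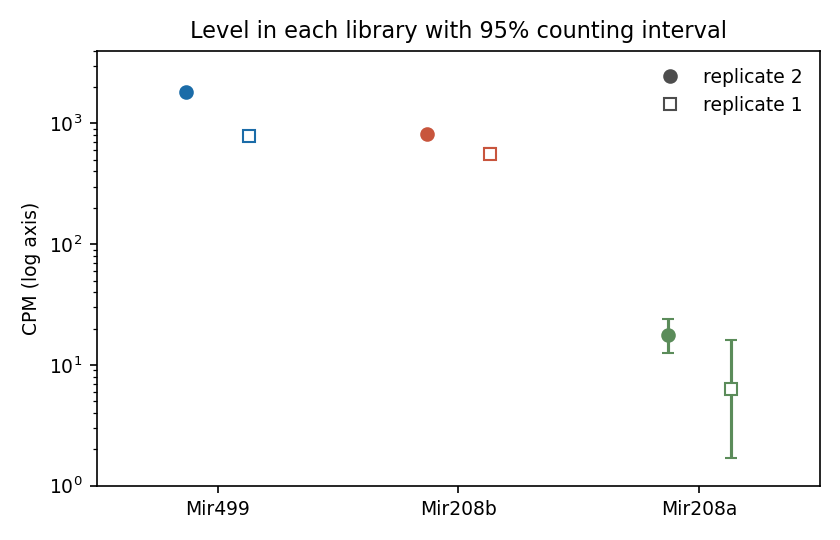
Level of each gene in CPM (log axis) in replicate 2 (filled circles) and replicate 1 (open squares), with exact 95% Poisson intervals, which are narrower than the symbols for Mir499 and Mir208b. Mir499 (1819 and 784 CPM) and Mir208b (819 and 564 CPM) lie well above Mir208a (17.6 and 6.26 CPM).

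No read was counted on the strand opposite any of the 3 genes. The opposite-strand count was 0 for each gene in both libraries, with the same limits of 1.32 and 4.70 CPM. Counts that ignored strand were identical to the same-strand counts, 4132 and 501, 1860 and 360, and 40 and 4, so none of these reads was lost to an overlapping gene. GENCODE M21 has no other gene at these positions than the host.

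Most of the reads of the group came from Mir499, and its share was larger in replicate 2. Of 6032 counts over the 3 genes in replicate 2 and 865 in replicate 1, Mir499 held 68.5% (exact Clopper-Pearson 95% interval 67.3 to 69.7) and 57.9% (54.5 to 61.2). Mir208b held 30.8% (29.7 to 32.0) and 41.6% (38.3 to 45.0). For both genes the shares in the 2 libraries differed by more than counting error. As these genes hold nearly all of the counts, the share of one falls where the other rises, and this is a single difference. Mir208a held 0.663% (0.474 to 0.902) in replicate 2 and 0.462% (0.126 to 1.18) in replicate 1, with overlapping intervals. The mean shares were 63.2% ± 7.48 for Mir499, 36.2% ± 7.62 for Mir208b and 0.563% ± 0.142 for Mir208a (SD, n = 2).

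**Figure D3:**
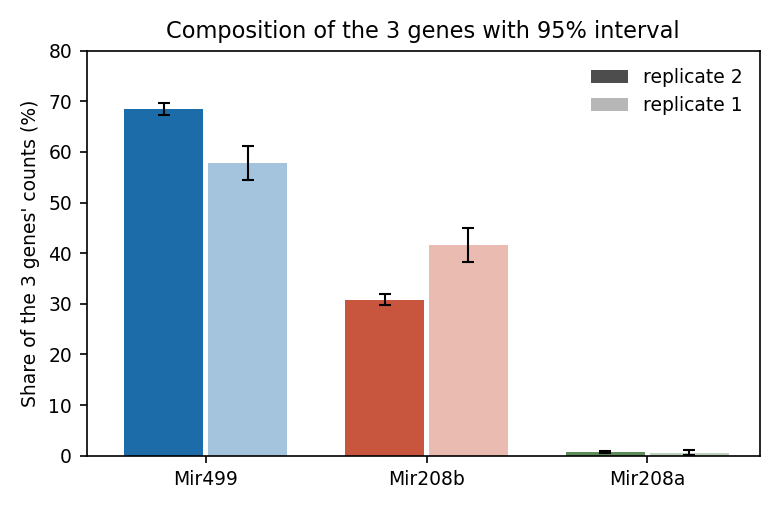
Share of the counts of the 3 genes held by each, in replicate 2 (dark bars) and replicate 1 (light bars), with exact 95% Clopper-Pearson intervals. Mir499 held 68.5% and 57.9%, Mir208b 30.8% and 41.6%, and Mir208a under 1% in both.

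Between genes, levels were also compared per hairpin length, although counts of inserts under 30 nt need not grow with the length of the hairpin. Mir499 had 2302 and 993 CPM per 100 hairpin bases in replicates 2 and 1, Mir208b 1063 and 732, and Mir208a 21.2 and 7.54. The order was the one given by CPM. Per length, Mir499 was 2.17 times Mir208b in replicate 2 and 1.36 times in replicate 1. The plain count ratios were 2.22 (exact 95% interval 2.10 to 2.35) and 1.39 (1.21 to 1.60), which did not overlap. Between the miR-208 genes, which share a seed and neighbouring hosts, Mir208b had 46.5 times the counts of Mir208a in replicate 2 (34.0 to 65.3) and 90.0 times in replicate 1 (34.8 to 332). Per length these ratios were 50.1 and 97.0. The width of the interval in replicate 1 follows from the 4 counts of Mir208a. The counts of this pair were almost wholly those of Mir208b, 1860 of 1900 in replicate 2 and 360 of 364 in replicate 1. Counts do not separate the arms, so how many of these reads carry the shared seed is not known. How ligation and amplification favour one mature sequence over another was not measured, and it touches every ratio between genes.

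Read against each other, the libraries gave higher levels in replicate 2 for all 3 genes, with counting error exceeded for Mir499 and Mir208b. Mir499 was 2.32-fold higher in replicate 2 than in replicate 1 (95% interval of counting error 2.11 to 2.55), with an adjusted p of 7.08e-86 in the exact binomial test. Mir208b was 1.45-fold higher (1.30 to 1.63), with an adjusted p of 1.16e-10 in the same exact test. Mir208a was at 2.81-fold (1.02 to 10.8) and did not pass, with an adjusted p of 0.0993 in the exact binomial test. The two-sided test ran over the 311 genes with at least 10 counts in both libraries together, all 3 genes among them, with Benjamini-Hochberg adjustment at 0.05. It called 40.5% of these genes, and 23.2% were called higher in replicate 2. Against that background, 2 called genes of 3 are not read as a result about the group.

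The log2 ratios of Mir208a (1.34), Mir499 (1.21) and Mir208b (0.54) were the 24th, 32nd and 66th highest of the 311, with a median of 1.21 against 0.04 over all genes tested. Of the 126 genes called, 72 were higher in replicate 2 and 54 were lower there. TMM scaling moved each log2 ratio by -0.06 and made the split 57 higher and 64 lower, while the ratios of Mir499, Mir208b and Mir208a were then 1.15, 0.48 and 1.28, positive as before. The binomial test compares these libraries and not mice or conditions. With the spread between the libraries counted as noise, edgeR's negative binomial exact test called 0.643% of the 311 genes and none of the 3, with adjusted p-values of 0.64 for Mir499 and 1 for the others. Its unadjusted p-values were 0.0391 for Mir499, 0.357 for Mir208b and 0.142 for Mir208a, and 20 of the 311 genes had one under 0.05.

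**Figure D4:**
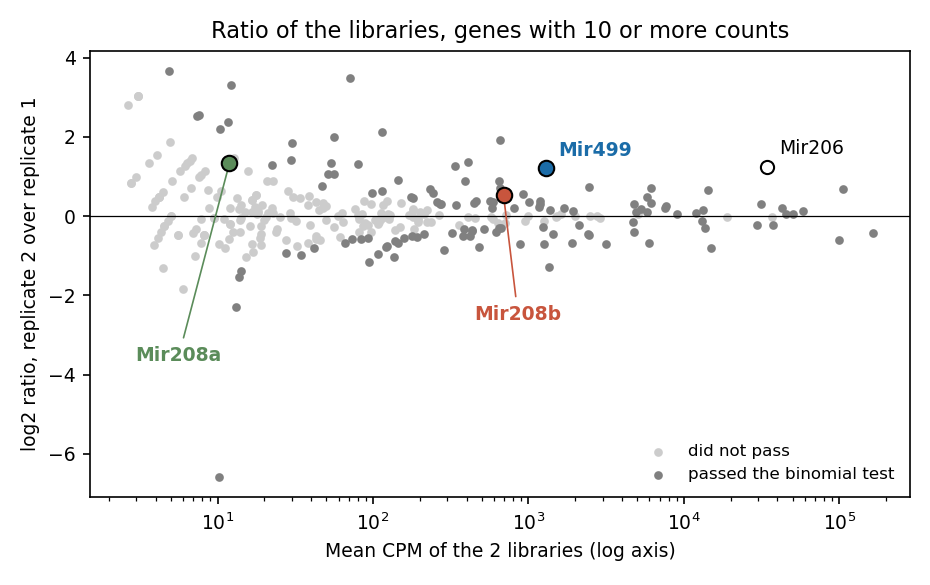
Log2 ratio of replicate 2 over replicate 1 against mean CPM (log axis) for the 311 genes with at least 10 counts, darker where the gene passed the exact binomial test. Mir499 (1.21), Mir208b (0.54) and Mir208a (1.34) are coloured, and Mir206 is the open circle.

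The other muscle microRNAs were taken from a list of 9 names, of which 8 matched a symbol in the tables and 7 had enough counts for the test. Mir486b matched none, and other symbols for it were not searched. In the exact binomial test 2 were higher in replicate 2, 0 were lower and 5 did not pass, and the median log2 ratio of the 7 was -0.39. That median is the value of Mir133a-1, which had few counts and did not pass, so it gives no direction for the list. Taken as a whole, the list was 2.30-fold higher in replicate 2 (49522 against 21536 CPM), and most of both sums was Mir206. Of the 2 genes that passed, Mir206, the microRNA restricted to skeletal muscle, had the larger ratio, at 2.37-fold. It had 109240 counts in replicate 2, or 48078 CPM, and 12983 in replicate 1, or 20325 CPM. Mir486, in an intron of the ankyrin gene Ank1, had 2575 and 568 counts, or 1133 and 889 CPM, 1.27-fold. By the reads assigned to this gene alone, its level lay between those of Mir499 and Mir208b in replicate 2 and above both in replicate 1. Any miR-486 reads that matched several places are not in it. In replicates 2 and 1, the miR-1 genes had 611 and 167 counts (Mir1a-2), 25 and 9 (Mir1a-1) and 3 and 0 (Mir1b). The miR-133 genes had 27 and 14 counts (Mir133b), 28 and 10 (Mir133a-1) and 11 and 6 (Mir133a-2). Each of these 6 genes shares 20 bases or more with another of them, and reads matching several places are not counted, so their low values cannot be set against those of the myosin intron genes.

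Several cell type markers also differed between the libraries, and their part in the ratios of Mir499, Mir208b and Mir208a was not tested. The endothelial gene Mir126a was higher in replicate 2, at 129798 CPM against 81286 CPM in replicate 1. The 2 genes of vascular smooth muscle, led by Mir143, summed to 81451 and 123068 CPM, both lower in replicate 2. Those of red blood cells, led by Mir451a, summed to 4688 and 6176 CPM, 2 of 2 lower. The fibroblast list, led by Mir21a, summed to 11795 and 19698 CPM, with 1 gene higher, 2 lower and 1 not passing of 5, and Mir199a-1 at 0. Mir199a-1, Mir199a-2 and Mir199b share 20 bases or more, so their uncounted common reads limit these values. The leukocyte list, led by Mir155, summed to 2889 and 2542 CPM, with 2 of 4 higher and 1 lower. Epithelial genes, led by Mir200c, summed to 28.6 and 48.5 CPM with 1 of 5 lower, the liver gene Mir122 had 29.9 and 15.7 CPM and did not pass, and of 6 neural genes Mir9-1 alone had a read, 1 in replicate 2. The Mir9 and Mir124a genes are multi-copy too, so low counts there set no limit. Mir208a is itself the list's marker of heart muscle, and its 17.6 and 6.26 CPM are given above.

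Set among microRNA genes of like position by the reads assigned to a single gene, Mir499 and Mir208b stood above the detected median and Mir208a below it. In all, 512 genes with a Mir symbol lay within introns of protein-coding genes on the host's strand, and 102 of them reached 2 CPM in both libraries, with a median of 103 CPM. By mean CPM Mir499 ranked 20 of the 512, Mir208b 27 and Mir208a 82. No read was assigned in either library to 289 of them, which include multi-copy genes whose shared reads are not counted. Without the 112 intronic genes that share 20 bases or more with another counted gene, the ranks were 14, 20 and 62 of 400 and 211 had no read. In the exact binomial test 46.1% of the 102 intronic genes with enough counts were called, 26 higher in replicate 2 and 21 lower, with a median log2 ratio of 0.01.

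**Figure D5:**
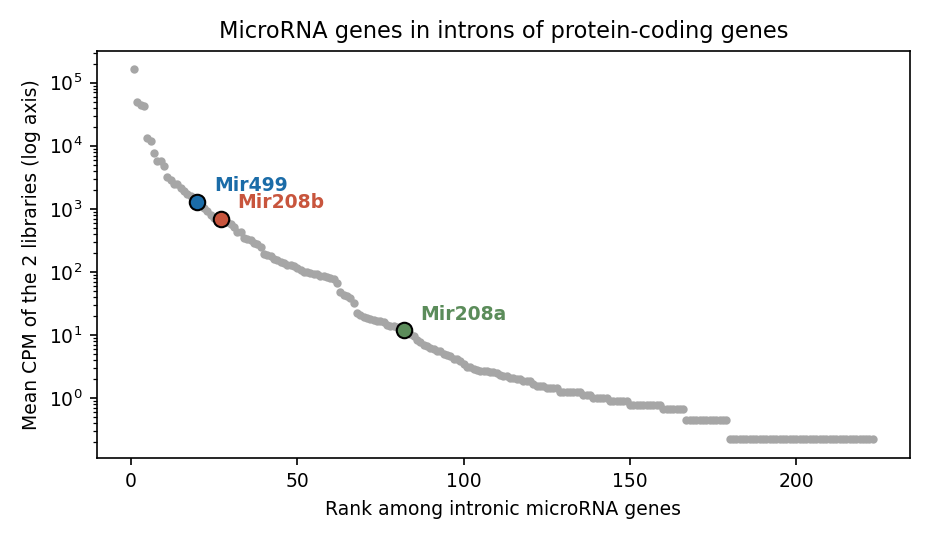
Mean CPM (log axis) against rank for the microRNA genes in introns of protein-coding genes that had at least 1 read. Mir499 (rank 20, 1301 CPM) and Mir208b (rank 27, 691 CPM) lie near the top, and Mir208a (rank 82, 11.9 CPM) lies further down, above the median of 2.23 CPM of the 223 genes plotted. Genes with near-identical copies can be plotted too low.

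The genes nearest in level were found by Euclidean distance in log2(CPM + 1) over the 2 libraries. Nearest to Mir499 were Mir128-1 (1339 CPM in replicate 2 and 1025 in replicate 1, distance 0.59), Mir155 (1314 and 1065, 0.64) and Mir150 (1260 and 1068, 0.69). Mir499 exceeded each in replicate 2 and was below each in replicate 1. Mir208b had closer neighbours in Mir214 (853 and 575 CPM, distance 0.06), Mir328 (819 and 503, 0.17) and Mir92-1 (835 and 449, 0.33). Those of Mir208a were Mir199a-2 (44 and 4 counts, distance 0.13), Mir675 (30 and 5 counts, 0.48) and Mir205 (27 and 5 counts, 0.60), at levels where 1 count is worth 1.57 CPM in replicate 1. Mir128-1, Mir92-1 and Mir199a-2 are uncertain, as each has a run of at least 20 bases in common with another counted gene. Likeness over 2 libraries is a description of level alone.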

How the data were processed

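MicroRNA libraries of 2 gastrocnemius samples were analysed. The authors deposited raw read counts for each microRNA gene in a table per library with 3 unnamed count columns, on mm10 with GENCODE M21 per the deposited texts. The aligner is not given in the sources used here, nor is the counter. The first column was read as ignoring strand and the others as the 2 strands, the same-strand one having the larger gene total. Same-strand counts were divided by the column total over gene rows to give CPM. The 4 rows that name no gene (unmapped, 6.93% and 5.97% of reads in replicates 2 and 1, multi-mapping, no feature, 2.48% and 1.62%, ambiguous) stayed out of totals.

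The 3 genes were matched by Ensembl identifier. The members and gene lists were chosen with earlier results of these data known. Libraries were compared over all genes with 10 or more counts by an exact conditional binomial test with Benjamini-Hochberg adjustment. The test was tried on simulated Poisson counts. These hold counting error alone, without further spread between libraries, so the trial does not show how the test behaves in these data. edgeR's quasi-likelihood test could not be fitted to 2 libraries of 1 group. Log2 ratios used a prior count of 0.5. Named genes are the 3 members, the 3 genes nearest in level to each, the muscle list and the leading gene of each marker list. Mir6923 was named after its value was seen. Alternatives were the unstranded column, other totals, scalings, prior counts and filters, omission of each library, and a negative binomial test. Ranks without genes that share 20 bases with another were added after seeing the data.

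Symbols and introns came from GENCODE M21 and sequences from RefSeq (GRCm38.p6), whose hairpin coordinates matched for all 3 genes. Software was Python 3.11.15, pandas 2.3.3, numpy 2.4.6, scipy 1.17.1, matplotlib 3.10.9, RNAfold 2.7.2, R 4.3.3, DESeq2 1.42.0 (size factors only) and edgeR 4.0.16.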

Additional observations from a re-analysis of the deposited data

How the results depend on the processing

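Of 59 alternative values, 47 counted as unchanged and 0 log2 ratios reversed in sign. Log2 ratios had to keep their direction and side of the threshold, and other values to move by less than 1 SD. The number of called genes had to stay near 126, whatever its split. TMM scaling changed that split from 72 higher and 54 lower to 57 and 64. Some values could not fail these rules, so the 47 do not measure robustness. With 2 libraries, leaving out 1 always moves a mean by less than 1 SD. Prior counts do not enter the binomial test, and the shares rest on equal counts in both columns. With the negative binomial test the log2 ratios of Mir499 (1.21) and Mir208b (0.54) no longer passed, and 2 genes in all were called in place of 126. That test counts the spread between the libraries as noise. With all reads in the total, the means of Mir499, Mir208b and Mir208a were 214, 115 and 1.96 per 1000000 reads, because multi-mapping reads enter the total. With the unstranded column the means were 1858, 987 and 17.0 CPM, because the total is smaller there while the counts are the same. The shift exceeded 1 SD for Mir208b only, whose SD is the smallest relative to its mean. Leaving out genes that share 20 bases with another, a choice made after seeing the data, moved the ranks as reported above, by more than the spread between libraries in 5 of 6. Leaving out a library gave 784 to 1819 CPM for Mir499, 564 to 819 for Mir208b and 6.26 to 17.6 for Mir208a. Their shares were then 57.9 to 68.5%, 30.8 to 41.6% and 0.462 to 0.663%. Ratios between libraries need both, so none could be given without one. No paired analysis was possible because there is 1 group. The 4 counts of Mir208a in replicate 1 limit every ratio that includes it, and 2 libraries limit every SD.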

Other observations

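Relative to Mir206, which had the most reads assigned to a single gene in the muscle list, Mir499 held nearly the same level in both libraries. This comparison was chosen after the values were seen. Mir206 was the listed gene nearest to Mir499 in fold, at 2.37 against 2.32 for replicate 2 over replicate 1. None of the other tested genes of the list was above 1.27-fold, the value of Mir486. A nearly constant ratio of Mir499 to Mir206 follows from that choice and is not read as a result. Outside the list, Mir342 had a like log2 ratio of replicate 2 over replicate 1, 1.26 against 1.21 for Mir499. The miR-1 and miR-133 genes of that list lose reads to their copies, so Mir206 need not be its most abundant microRNA. There were 37.8 counts of Mir499 per 1000 counts of Mir206 in replicate 2 (exact 95% interval 36.7 to 39.0) and 38.6 in replicate 1 (35.2 to 42.2), and the intervals overlapped. Mir208b had 17.0 counts per 1000 of Mir206 in replicate 2 (16.3 to 17.8) and 27.7 in replicate 1 (24.9 to 30.8), without overlap. Mir208a had 0.366 (0.262 to 0.499) and 0.308 (0.0839 to 0.789). Intervals cover counting error only, and with 2 libraries no relation between the genes across mice can be tested.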
